A study of Homo sapiens with 15 samples.

Results

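Cells of A375, an established human melanoma line with mutant BRAF, that overexpressed VAV1 were compared with A375 cells carrying an empty vector, both kept with vehicle. The comparison uses 6 of the 15 libraries of the series, 3 for each group, chosen by their titles and by the genotype and treatment in their labels. Its members are the genes whose normalized count reached 10 in 3 or more of these 6 libraries, which left 14067 of 16768 listed genes. Total RNA was sequenced after an Illumina TruSeq preparation. The labels give no promoter or vector for VAV1, no vehicle solvent and no time, and they do not say whether the cells of a group descend from 1 clone. The 3 libraries of a group are described as biological triplicates and the labels do not say how far back these cultures were separate, so each p-value speaks only for the spread among them.

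VAV1 is a guanine nucleotide exchange factor: it loads small GTPases such as RAC1 with GTP and so switches them on. Blood cells are its usual site of expression, where SRC family and related kinases phosphorylate it below antigen receptors and where it also acts as an adaptor for phospholipase C and phosphoinositide 3-kinase signalling. Active RAC1 controls the actin cytoskeleton, cell shape and gene programmes that respond to it. In melanoma, activated forms of RAC1 recur as mutations, and VAV proteins act directly above RAC1.

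A small set of genes went from near nothing to clear expression with VAV1, or the reverse, and some of their promoters are shown here. The set rests on limits on counts, and some genes outside it changed by a larger factor than some of its members. A gene was counted as switched on where its normalized count was below 10 in all 3 libraries of the empty vector and at least 100 in all 3 libraries of VAV1, and as switched off where the reverse held. By that rule 8 genes were switched on (VAV1, BASP1, RGS4, KISS1, ROS1, ANO2, VSTM1 and KRTAP2-3) and 1, RXRG, was switched off. The sequences are the 250 bases before the annotated start, 5′ to 3′ on the gene's own strand, from RefSeq on GRCh38.p14. Capitals mark the letters TATAAA, the TATA box motif, on either strand. KISS1 lies at chr1:204196492-204196741, minus strand, KRTAP2-3 at chr17:41060115-41060364, minus strand, the third of 4 listed starts of RGS4 at chr1:163069111-163069360, plus strand, BASP1 at chr5:17216573-17216822, plus strand, and RXRG at chr1:165445127-165445376, minus strand.
KISS1: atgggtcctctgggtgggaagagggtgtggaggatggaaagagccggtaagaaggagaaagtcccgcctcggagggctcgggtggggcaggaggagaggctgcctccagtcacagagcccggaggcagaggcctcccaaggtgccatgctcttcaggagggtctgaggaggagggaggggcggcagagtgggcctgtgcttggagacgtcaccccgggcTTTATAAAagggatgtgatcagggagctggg
KRTAP2-3: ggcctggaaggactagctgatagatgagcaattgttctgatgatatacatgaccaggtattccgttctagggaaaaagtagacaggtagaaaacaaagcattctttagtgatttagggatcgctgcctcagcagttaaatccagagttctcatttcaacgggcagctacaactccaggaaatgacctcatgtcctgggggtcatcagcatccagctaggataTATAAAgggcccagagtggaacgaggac
RGS4: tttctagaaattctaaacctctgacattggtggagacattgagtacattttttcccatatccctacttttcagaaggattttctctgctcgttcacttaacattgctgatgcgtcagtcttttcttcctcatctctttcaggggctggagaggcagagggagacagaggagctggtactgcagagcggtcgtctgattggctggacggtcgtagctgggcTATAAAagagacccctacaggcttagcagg
BASP1: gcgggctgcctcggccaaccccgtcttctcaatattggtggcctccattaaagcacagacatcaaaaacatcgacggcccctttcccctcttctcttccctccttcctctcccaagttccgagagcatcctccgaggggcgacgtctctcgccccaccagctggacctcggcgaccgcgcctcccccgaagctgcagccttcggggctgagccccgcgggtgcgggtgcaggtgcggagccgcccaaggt
RXRG: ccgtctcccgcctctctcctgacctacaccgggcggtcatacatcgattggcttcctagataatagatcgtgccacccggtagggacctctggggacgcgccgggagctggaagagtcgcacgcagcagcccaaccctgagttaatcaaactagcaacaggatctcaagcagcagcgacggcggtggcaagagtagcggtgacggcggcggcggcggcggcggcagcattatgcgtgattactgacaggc

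On the gene's own strand TATAAA starts 29 bases before the start of KISS1, 28 before that of KRTAP2-3 and 30 before the third start of RGS4. In KISS1 it overlaps a match on the opposite strand, which begins 31 bases before the start. Among all 35116 promoters of the RefSeq table, 10.7% held TATAAA on either strand within these 250 bases. No such match is found for BASP1, RXRG, ROS1 or VAV1, for either listed start of ANO2 or for the other 3 listed starts of RGS4. The sequences of BASP1 and RXRG hold 21 and 24 CG dinucleotides against a median of 11 over all promoters. KISS1 and KRTAP2-3 hold 8 and 4, ROS1 and VAV1 hold 3 and 7, and the listed starts of ANO2 hold 1 and 34. The 4 listed starts of RGS4 hold 5, 2, 6 and 1. The other motifs searched on both strands were TGANTCA (AP-1, in 6.6% of all promoters), GGAATG (TEAD, 11.9%), CACGTG (E-box, 6.3%), CCGGAA (ETS core, 14.5%) and the CArG box (1.2%). None of these 5 was present in any listed promoter of the switched genes found in the table, which were all but VSTM1, and the letters of a short window say nothing of binding.

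VAV1 itself (chr19:6772714-6857366, GRCh38, plus strand) checked the labels. Its normalized counts were 2.74, 4.62 and 3.84 in the empty-vector libraries and 15579.5, 14839 and 15689.6 in the VAV1 libraries, a difference of 11.68 ± 0.14 on the log2 scale (SE, n = 3 against 3, limma adjusted p = 4.42e-13). The transcript took 0.104% ± 0.002 (SD, n = 3) of all normalized counts in the VAV1 cells. Values per gene symbol cannot tell the introduced VAV1 from the cell's own gene. All differences below are VAV1 minus empty vector on the log2(normalized count + 1) scale with their SE, which understates the change of genes with low counts, and a gene is said to rise or fall only with a limma adjusted p under 0.05 over all tested genes. Counts of higher and lower list members follow the same rule.

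The switched genes outside VAV1 have roles in neurons, blood cells, hair and hormone signalling. BASP1, a membrane protein of neuronal growth cones (chr5:17065598-17276843, plus strand), had normalized counts of 5.57, 5.74 and 5.16 with the empty vector and 485, 478 and 512 with VAV1. Its replicates were close in both groups, and the limma adjusted p of the difference was 3.61e-10. RGS4, which speeds GTP hydrolysis by heterotrimeric G proteins (chr1:163068775-163076802, plus strand), went from 3.63, 4.76 and 1.89 to 286, 222 and 385. KISS1, the precursor of the peptide kisspeptin, known as a metastasis suppressor gene in melanoma (chr1:204190341-204196486, minus strand), went from 1.99, 3.02 and 0.837 to 191, 186 and 192. The rule that chose the switched genes sets the groups apart, so this gap and their p-values are a description and no further support. ROS1, a receptor tyrosine kinase, had 4.14, 7.46 and 3.54 and 185, 188 and 192, a difference of 5.02 ± 0.28. ANO2, a calcium-activated chloride channel, had 0, 4.50 and 0.418 and 150.2, 128 and 151, with 1 empty-vector library at 0. VSTM1, an inhibitory receptor of myeloid cells, had 6.23, 4.89 and 0 and 129, 112 and 137 (adjusted p = 0.000139). KRTAP2-3, a keratin-associated protein of the hair shaft and part of a family with similar sequences whose counts are uncertain, had 4.25, 2.19 and 9.09 and 126, 116 and 113.

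RXRG, the retinoid X receptor gamma (chr1:165400917-165445355, minus strand), was the 1 gene switched off. Its counts were 156, 164 and 128 with the empty vector and 8.83, 4.64 and 8.62 with VAV1, a difference of -4.21 ± 0.28 (adjusted p = 2.95e-07). Here too the rule sets the groups apart. The sets depend on the thresholds: with limits of 5 and 50 they hold 13 genes on and 0 off, and with limits of 20 and 200 they hold 7 on and 0 off. Without the second VAV1 library CERS4, a ceramide synthase gene, also counts as off.

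**Figure D1:**
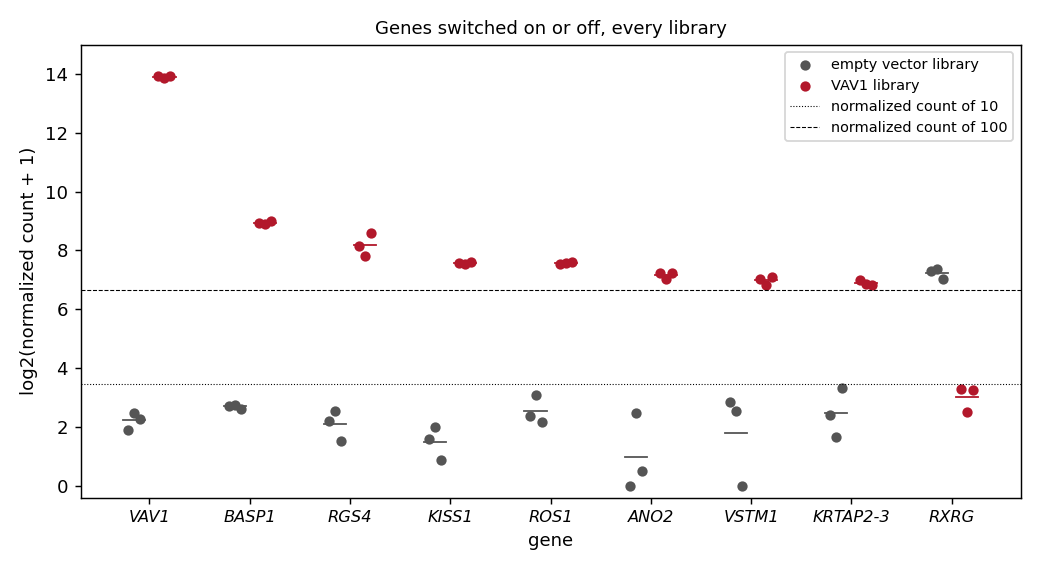
Levels of the 9 genes switched on or off, as log2(normalized count + 1) for each of the 6 libraries, with the group mean as a short line and dotted and dashed lines at normalized counts of 10 and 100. By the rule, in 8 genes all VAV1 libraries lie above the dashed line and all empty-vector libraries below the dotted one, and RXRG shows the reverse.

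The response was broad. Of the 14067 tested genes 6091 were called (43.3%), 3277 higher (23.3%) and 2814 lower (20%). In 7484 genes (53.2%) no library of a group reached the range of the other. Most calls were small: 58.3% of the called genes changed by less than 1.5-fold. More than a 2-fold change was found for 1406 genes (10.0%), 635 higher (4.51%) and 771 lower (5.48%). Past 8-fold the balance went the other way, with 118 genes higher and 39 lower, and past 32-fold there were 17 higher and 1 lower. Genes with low values made up much of the 2-fold set, since 25.83% of genes with a mean log2 level under 5 were in it against 3.72% between 9 and 11. The filter passes a low gene when only 1 group reaches 10, so part of the former share can follow from the filter. With a filter of 50 normalized counts in place of 10, the 2-fold set held 932 genes.

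The share of each library taken by the higher and the lower genes was set side by side. Genes called more than 2-fold higher made up 0.866% ± 0.014 (SD, n = 3) of the normalized counts of the empty-vector libraries and 2.54% ± 0.022 of the VAV1 libraries. Genes called more than 2-fold lower took 5.211% ± 0.071 with the empty vector and 1.675% ± 0.038 with VAV1. The genes were chosen by the size of their change, so these shares are a description and carry no test. The 6 libraries held 14443918 to 14896129 normalized counts each, but whole reads cannot be rebuilt from these values, so the number of reads behind a value is unknown and no counting interval is given. Across genes the libraries of a group correlated at 0.9845 to 0.9878 and those of different groups at 0.9396 to 0.9445.

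**Figure D2:**
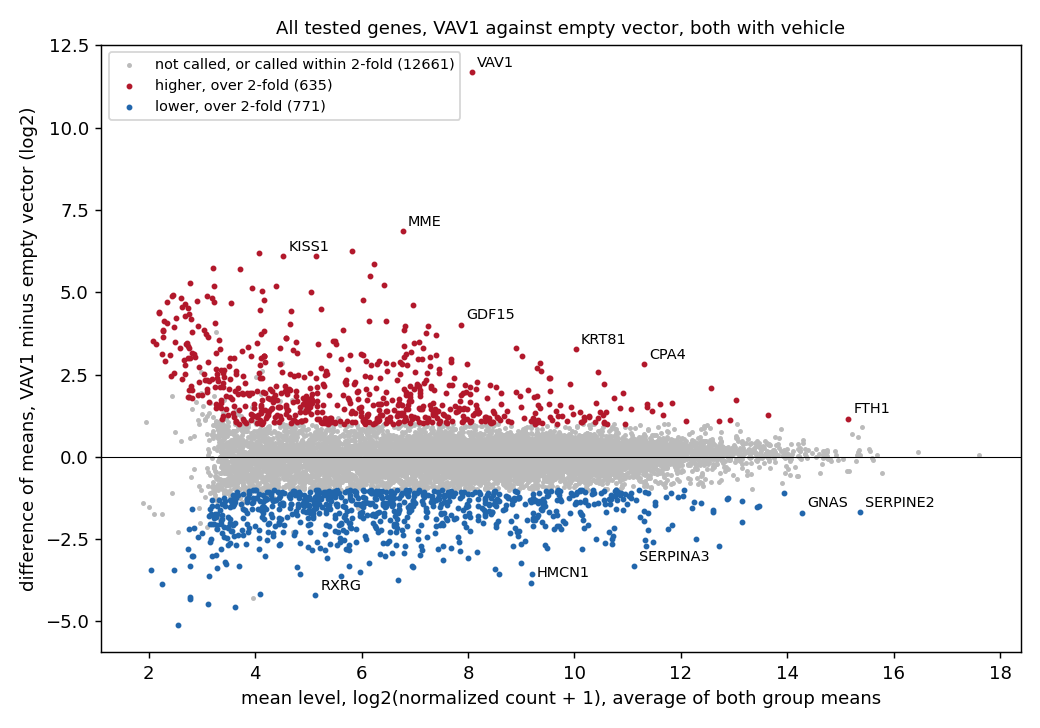
Difference of the group means (VAV1 minus empty vector, log2) against the mean level for all 14067 tested genes, with the 635 genes called more than 2-fold higher in red and the 771 called more than 2-fold lower in blue. The red points reach further from 0 than the blue ones, and SERPINE2 and GNAS stand out among the genes with large counts.

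Genes were ranked only if called, without overlap between the groups and with a mean normalized count of at least 500 in the higher group. Besides VAV1 itself, the 12 largest increases among them were those of MME, IGFN1, SPANXB1, MARCH4, GDF15, RAB3B, NRG1, SERPINB7, ESM1, KRT81, ANKRD1 and UNC13D. MME, the cell-surface peptidase neprilysin, had counts of 10.1, 2.42 and 26.6 with the empty vector and 1229.8, 1147 and 1139 with VAV1. Its empty-vector libraries varied widely among themselves, and the limma adjusted p of the difference was 0.000803. RAB3B, a small GTPase of secretory vesicles, went from 41.4, 29.6 and 42.8 to 587, 629 and 605, a rise of 3.98 ± 0.16. NRG1, the neuregulin ligand of the receptors ERBB3 and ERBB4, went from 37.2, 50.5 and 32.6 to 621, 492 and 523, a rise of 3.75 ± 0.17. SERPINB7, an intracellular protease inhibitor, went from 51.3, 39.1 and 48.4 to 588, 549 and 698. KRT81, a keratin of hair, went from 321, 342 and 336 to 3226, 3107 and 3349, a rise of 3.27 ± 0.06 with little spread in either group. UNC13D, which primes secretory lysosomes for release in cytotoxic cells, went from 62.2, 53 and 113 to 545, 650.2 and 523, with 1 empty-vector library above the others. ESM1, the secreted proteoglycan endocan, rose by 3.29 ± 0.08 and the membrane ubiquitin ligase MARCH4 by 4.62 ± 0.30. The remaining values were 5.85 ± 0.23 for IGFN1, a protein of muscle sarcomeres, 5.21 ± 0.19 for the cancer-testis gene SPANXB1, 4.02 ± 0.14 for the stress cytokine GDF15 and 3.08 ± 0.09 for the cardiac ankyrin repeat protein gene ANKRD1.

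The 12 largest decreases under the same limits were those of HMCN1, TFAP2B, FXYD3, IGFBP5, SERPINA3, NFATC2, S100B, S100A1, SORCS1, EYA1, CEMIP and CAPS. SERPINA3, the secreted protease inhibitor antichymotrypsin, had counts of 7192, 6978 and 6889.6 with the empty vector and 698, 696 and 711 with VAV1, a difference of -3.32 ± 0.05 (adjusted p = 1.99e-12). NFATC2, a transcription factor that calcium and calcineurin bring into the nucleus and that acts below VAV1 in T cells, went from 1572, 1507 and 1554 to 146, 192 and 162, a difference of -3.21 ± 0.10. The group means were 9.99-fold and 9.27-fold apart in these genes. IGFBP5, a carrier of insulin-like growth factors, went from 1248, 1215 and 1128 to 89.9, 119 and 128. S100B, a calcium-binding protein used as a marker of melanoma, went from 564, 531 and 546 to 53.2, 73.8 and 58.2, and the related S100A1 from 753, 742 and 738 to 96.5, 82.9 and 83.9. Since only genes without overlap were ranked, a fall in every VAV1 library was set by that choice. SORCS1, a sorting receptor of neurons, fell by 2.89 ± 0.15. EYA1, a phosphatase and coactivator of development, fell by 2.86 ± 0.11, and the calcium-binding protein CAPS fell by 2.77 ± 0.11. The values were -3.83 ± 0.16 for the matrix protein hemicentin (HMCN1), -3.56 ± 0.13 for the transcription factor TFAP2B, -3.55 ± 0.09 for the sodium pump regulator FXYD3 and -2.80 ± 0.08 for CEMIP, which degrades hyaluronan.

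Genes of the pathway in which VAV1 acts were described next, from its targets outwards. RHOF, a GTPase that drives filopodia, went from 679, 582 and 636 to 1255, 1502 and 1312, a rise of 1.10 ± 0.09. RND3, which lacks GTPase activity and opposes RHOA signalling, went from 673, 947 and 703 to 1175, 1125 and 1364. RHOJ, of the CDC42 branch and known from endothelial cells, fell from 141, 156 and 128 to 28.7, 47.3 and 46.9, a difference of -1.79 ± 0.22. RHOBTB3 and RHOG rose by 0.53 ± 0.07 and 0.36 ± 0.09, and RAC3 fell by 0.48 ± 0.13.

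Several exchange factors, which activate GTPases as VAV1 does, changed, some up and some down. DOCK2, the exchange factor for RAC of lymphocytes, went from 36.7, 85.2 and 58.3 to 473, 459 and 535, a rise of 3.08 ± 0.25 (adjusted p = 4.69e-06). ARHGEF28, DOCK10 and FGD6 rose by 1.10 ± 0.08, 1.07 ± 0.23 and 0.94 ± 0.18. TIAM1, which activates RAC1, went from 913, 799.7 and 930.2 to 409, 422 and 374.8, a difference of -1.13 ± 0.09, and DOCK4, another activator of RAC1, from 1013, 1089.6 and 1117 to 439, 599 and 402. SPATA13 and ARHGEF6 fell, with differences of -1.25 ± 0.10 and -1.18 ± 0.10. None of these genes, picked as called members with large changes, had overlapping groups. Of all tested genes, 53.2% had none.

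Some proteins that switch GTPases off or hold them inactive changed as well. ARHGAP29, a GTPase-activating protein for RHOA, went from 579, 575 and 552 to 3334, 3476 and 3416, a rise of 2.58 ± 0.06 (adjusted p = 3.92e-11). ARHGDIB, a GTPase dissociation inhibitor of blood cells, went from 52.5, 60.5 and 67.8 to 312, 269.9 and 270.1, and DLC1, a GTPase-activating protein deleted in liver cancer, from 575, 602 and 561 to 1636, 1566 and 1773. ARHGAP44 rose by 1.32 ± 0.17. ARHGAP5, known as p190B, went from 1891, 1725 and 1936 to 729.7, 807 and 715, a difference of -1.30 ± 0.07. ARHGAP12, ARHGAP31 and SRGAP2 fell, with differences of -1.16 ± 0.07, -1.06 ± 0.18 and -0.63 ± 0.07.

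Second messenger enzymes came next. For phospholipase C and diacylglycerol kinases, 22 of the 27 members of the list were tested, 8 rose and 5 fell (59.1% called), 4 and 0 of them by more than 2-fold, and the median difference was 0.23. Of all tested genes, 43.3% were called and 10.0% passed 2-fold, and the share called is given in brackets for each list. PLCXD2, which holds a phospholipase C domain, rose by 1.96 ± 0.20, PLCB4, activated by G proteins, by 1.46 ± 0.20, and PLCD3 by 0.64 ± 0.08, while PLCD1 fell by 0.84 ± 0.21. Diacylglycerol kinases remove the lipid that activates protein kinase C, and of these DGKG rose by 0.79 ± 0.14 and DGKA fell by 0.41 ± 0.09. In the protein kinase C and D list, 10 of the 12 members of the list were tested, 3 rose and 4 fell (70.0% called), 1 and 0 of them by more than 2-fold, and the median difference was -0.14. PRKCE, the epsilon isoform, went from 137, 134 and 108 to 442, 527 and 512, a rise of 1.96 ± 0.13, and PRKCA rose by 0.62 ± 0.07. PRKCD and PRKD1 fell, at -0.53 ± 0.06 and -0.88 ± 0.12.

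Phosphoinositide 3-kinase genes changed mostly by little. Of this pathway 32 of the 37 members of the list were tested, 8 rose and 13 fell (65.6% called), 2 and 2 of them by more than 2-fold, and the median difference was -0.07. PIK3AP1, an adaptor that recruits the kinase in B cells, went from 38.4, 32 and 65.4 to 184, 166 and 169, a rise of 1.98 ± 0.24, and IRS1, the insulin receptor substrate, rose by 0.85 ± 0.10. SGK1, a kinase switched on below the pathway, went from 1486, 1352 and 1429 to 662, 667 and 679, a difference of -1.08 ± 0.06, and SESN3 fell by 1.47 ± 0.22. Of the adaptors and kinases that work with VAV1 in blood cells, 16 of the 28 members of the list were tested, 4 rose and 5 fell (56.2% called), 0 and 2 of them by more than 2-fold, and the median difference was 0.14. SH2B3, an adaptor that dampens cytokine signalling, went from 6170.3, 5839 and 6095 to 2841, 3070.3 and 3098, a difference of -1.01 ± 0.05. NCK2 fell by 0.48 ± 0.11. The number of these adaptors called, 9, was 4 without the first empty-vector library, 5 without the first VAV1 library and 3 without the third VAV1 library.

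Regulators of actin filaments shifted in both directions around a median near 0. In the list of filopodia, fascin and cofilin-type regulators, 71 of the 80 members of the list were tested, 21 rose and 25 fell (64.8% called), 6 and 7 of them by more than 2-fold, and the median difference was -0.12. GSN, gelsolin, which severs actin filaments, went from 6396, 5985 and 6031 to 1182, 1074 and 972, a difference of -2.52 ± 0.07 (adjusted p = 1.86e-10). AFAP1L2, an adaptor of SRC, went from 567, 559.5 and 535 to 102, 77.1 and 99, and the bundling protein espin (ESPN) fell by 2.18 ± 0.21. EPS8L2, a regulator of actin that links receptors to RAC, went from 135, 149.6 and 121 to 501, 534 and 497, a rise of 1.91 ± 0.11. PALLD, palladin, of stress fibres and podosomes, went from 249.9, 259 and 291 to 983, 970.1 and 904. The formins, which nucleate actin filaments, were split: DAAM1 and FMNL1 rose by 1.65 ± 0.20 and 1.49 ± 0.15, and DAAM2 fell by 1.61 ± 0.12.

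Intermediate filaments and contractile proteins included some of the strongest increases. For keratins and other intermediate filaments, 23 of the 34 members of the list were tested, 8 rose and 7 fell (65.2% called), 7 and 4 of them by more than 2-fold, and the median difference was -0.01. KRT80 and KRT7 rose by 1.62 ± 0.05 and 2.17 ± 0.11. KRT18, which pairs with KRT8, went from 5716, 4999 and 5255 to 12057, 11097 and 11150.3, a rise of 1.10 ± 0.06, and KRT8 rose by 0.99 ± 0.06. Nestin (NES), a filament of neural progenitors, went from 4908, 4914 and 4652 to 1405, 1547 and 1512, a difference of -1.70 ± 0.05. BFSP1, a filament of the eye lens, fell by 2.16 ± 0.21, KRT14 fell by 1.28 ± 0.20 and SYNM fell by 0.77 ± 0.09. For muscle contractile genes, 22 of the 58 members of the list were tested, 8 rose and 2 fell (45.5% called), 6 and 0 of them by more than 2-fold, and the median difference was 0.14. MYLK, the myosin light chain kinase, went from 212, 307 and 209.5 to 925, 1099 and 837, a rise of 1.98 ± 0.15, and NEXN, an actin-binding protein of the Z-disc, from 35.2, 29.6 and 41.3 to 246, 168 and 251. PDLIM3 fell by 0.71 ± 0.12.

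Genes best known from neurons changed in both directions. For synaptic vesicles and exocytosis, 43 of the 72 members of the list were tested, 12 rose and 11 fell (53.5% called), 10 and 4 of them by more than 2-fold, and the median difference was -0.01. SH3GL2, endophilin A1, which bends membranes during endocytosis, went from 7.43, 8.75 and 13.6 to 476, 484 and 476. SCG5, a chaperone of a prohormone convertase, went from 7.07, 15.5 and 13.8 to 382, 316 and 329, a rise of 4.77 ± 0.26. In each of them, picked for large changes within the list, the empty-vector values were low. STX1A, a fusion protein of the plasma membrane, went from 440.2, 442 and 476 to 162, 211 and 183, a difference of -1.29 ± 0.12, and RAB3A, a relative of RAB3B, fell by 0.96 ± 0.15.

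Synaptic adhesion and scaffold genes held both directions too. Here 46 of the 62 members of the list were tested, 10 rose and 18 fell (60.9% called), 4 and 12 of them by more than 2-fold, and the median difference was -0.07. Of all tested genes 23.3% were higher and 20% lower. NRCAM, an adhesion molecule of axons, went from 254, 271 and 349 to 72.5, 37.4 and 28.8, a difference of -2.73 ± 0.29, and SLITRK6 from 1131, 1221 and 1136 to 314, 330.4 and 281. LSAMP and CNTN3 fell, with differences of -2.48 ± 0.27 and -1.90 ± 0.26. NEGR1, of the same family as LSAMP, went the other way, from 171, 152 and 207 to 573, 611 and 641, and neurofascin (NFASC) and L1CAM rose by 1.93 ± 0.13 and 0.89 ± 0.06.

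Receptors and channels of excitable cells held gains and losses. Neurotransmitter receptors had 27 of 77 members tested, 10 higher and 5 lower (55.6% called), 6 and 3 over 2-fold, median difference 0.24. GABRP, a subunit of GABA receptors, rose by 1.91 ± 0.19. CHRM3, a muscarinic receptor, fell by 1.80 ± 0.31 and GRIK2, a kainate receptor, fell by 1.16 ± 0.16. Potassium channels had 37 of 63 members tested, 10 higher and 11 lower (56.8% called), 7 and 5 over 2-fold, median difference -0.07. KCNE4, a subunit that inhibits potassium channels, went from 43.3, 26.6 and 19.4 to 424, 424 and 404, a rise of 3.84 ± 0.24, and KCNK1 and KCNMA1 rose by 2.14 ± 0.15 and 1.06 ± 0.09, while KCNS3 fell by 1.48 ± 0.16. TRP and mechanosensitive channels had 29 of 35 members tested, 3 higher and 8 lower (37.9% called), 2 and 5 over 2-fold, median difference -0.16. TRPV4, a calcium channel opened by warmth and cell swelling, went from 632, 607 and 637 to 143, 169 and 156, TRPM4 fell by 1.25 ± 0.16 and TRPM2 rose by 1.10 ± 0.13. Aquaporins and connexins had 14 of 21 members tested, 4 higher and 4 lower (57.1% called), 3 and 3 over 2-fold, median difference 0.20, with GJB1 at -2.15 ± 0.17 and the water and glycerol channel AQP3 at -1.67 ± 0.19.

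Peptide, lipid and nucleotide receptors coupled to G proteins had 31 of 71 members tested, 11 higher and 7 lower (58.1% called), 7 and 4 over 2-fold, median difference 0.16. S1PR1, a receptor for sphingosine 1-phosphate that signals to RAC, went from 21, 9.70 and 8.79 to 187, 191 and 187, a rise of 3.85 ± 0.29. S1PR2, another receptor of the same lipid, went from 389, 368 and 336 to 95.3, 98.1 and 104, a difference of -1.87 ± 0.12. These receptors of 1 ligand thus changed in opposite directions. The lysophosphatidic acid receptors did so too: LPAR1 went from 42.2, 35.3 and 25.6 to 339, 358 and 365, and LPAR6 from 219.5, 220.1 and 194 to 54.2, 62.4 and 95.3. EDNRB, the endothelin receptor of the melanocyte lineage, fell by 1.90 ± 0.11.

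Secreted peptides and hormones, with their processing enzymes, had 31 of 61 members tested, 16 higher and 7 lower (74.2% called), 9 and 5 over 2-fold, median difference 0.40. Their call share was 74.2%. Besides KISS1 and MME, STC2, a secreted glycoprotein hormone, went from 183, 116 and 187 to 728, 744 and 699.8, and the vasodilator adrenomedullin (ADM) from 199.8, 134 and 166 to 544, 513 and 418. VGF, a neuropeptide precursor, went from 2128, 1839 and 1989.9 to 579, 676 and 595, a difference of -1.69 ± 0.08. UCN2, urocortin 2, fell by 1.82 ± 0.11 and the prohormone convertase PCSK1 fell by 1.54 ± 0.16. With the filter at 50 normalized counts 15 of these genes were called, as fewer of them were tested.

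Growth factors for vessels, nerves and pigment cells mostly gained where they changed by more than 2-fold. The list of VEGF, PDGF and angiopoietin ligands and related factors had 24 of 35 members tested, 10 higher and 8 lower (75.0% called), 6 and 2 over 2-fold, median difference 0.09. KITLG, the ligand of the receptor KIT and a survival factor for melanocytes, went from 51.8, 36.9 and 53 to 359, 408 and 343, a rise of 2.96 ± 0.17. VEGFC, a growth factor of lymphatic vessels, went from 226, 216 and 235 to 690.2, 686 and 669, PDGFC rose by 1.95 ± 0.12 and the neurotrophin BDNF by 2.02 ± 0.16. GDNF, the ligand of the RET receptor complex, went from 107, 102 and 115 to 14.9, 27.7 and 26.8, a difference of -2.22 ± 0.25. Fibroblast growth factors and receptors had 18 of 21 members tested, 4 higher and 6 lower (55.6% called), 2 and 6 over 2-fold, median difference -0.09. FGFR3 went from 219, 187 and 201 to 50.7, 38.5 and 51.1 and FGFRL1, a receptor without a kinase, from 3298, 2897 and 3334 to 1318, 1436 and 1376. The intracellular factors FGF13 and FGF12 had differences of -1.81 ± 0.12 and -1.37 ± 0.24, and FGF2 rose by 0.67 ± 0.09.

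Immune ligands and receptors were smaller sets. The TNF superfamily and its receptors had 19 of 24 members tested, 7 higher and 4 lower (57.9% called), 3 and 2 over 2-fold, median difference 0.03. TNFRSF19, a receptor known as TROY, went from 1103, 1212 and 1206 to 161, 183 and 189, a difference of -2.72 ± 0.09, and TNFRSF1B fell by 1.68 ± 0.15, while TNFRSF8, known as CD30, rose by 1.98 ± 0.23. Chemokines had 10 of 18 members tested, 1 higher and 5 lower (60.0% called), 1 and 4 over 2-fold, median difference -0.55, with CXCL8, interleukin 8, at 308, 398 and 319.7 and 174, 148 and 161 and CXCL16 at a difference of -1.04 ± 0.22. Complement and coagulation genes had 25 of 43 members tested, 7 higher and 6 lower (52.0% called), 3 and 4 over 2-fold, median difference -0.07. TFPI, the inhibitor of the tissue factor pathway, went from 132, 155 and 147 to 425, 407 and 356 and clusterin (CLU) rose by 1.44 ± 0.18, while complement factor I (CFI) fell by 1.54 ± 0.14 and tissue plasminogen activator (PLAT) fell by 0.99 ± 0.06.

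SOX factors stood furthest from the background of all lists with at least 8 tested members, with 75.0% of them past 2-fold against 10.0% of all tested genes. In this family of transcription factors, 12 of the 12 members of the list were tested, 2 rose and 7 fell (75.0% called), 2 and 7 of them by more than 2-fold, and the median difference was -1.11. SOX5 went from 3769.7, 3786 and 4385 to 693, 725 and 709, a difference of -2.48 ± 0.07 (adjusted p = 1.78e-10). SOX11, of neural progenitors, went from 1066, 1121 and 1053 to 329.7, 343 and 309, and SOX2, of stem cells, from 131, 148 and 144 to 53.2, 48.2 and 56.3. SOX10 of the neural crest, the partner that SOX5 is known to modulate, changed by -2.07 ± 0.04. SOX9, of cartilage and of other neural crest derivatives, went the other way, from 22.3, 19.7 and 18.2 to 357, 352 and 379, a rise of 4.11 ± 0.16.

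Of the WNT signalling genes, most targets and nuclear factors fell, while ligands and receptors were split. WNT ligands, receptors and inhibitors had 31 of 42 members tested, 10 higher and 13 lower (74.2% called), 3 and 5 over 2-fold, median difference -0.01. DKK1, a secreted inhibitor of the pathway, went from 975, 1023 and 921 to 3893, 3511 and 3912, a rise of 1.95 ± 0.06. SFRP1, another secreted inhibitor, went from 4783, 4941 and 4814 to 1838, 1652 and 1772, a difference of -1.47 ± 0.05, and the receptor FZD7 from 576, 539.9 and 586 to 150.4, 151 and 144. WNT targets and nuclear factors had 20 of 24 members tested, 4 higher and 14 lower (90% called), 0 and 5 over 2-fold, median difference -0.44. LEF1 and TCF7L2, DNA-binding partners of beta-catenin, fell, with differences of -1.08 ± 0.10 and -0.87 ± 0.11. The target BAMBI fell by 2.08 ± 0.13 and the coactivator BCL9 fell by 0.68 ± 0.09. Among the members that rose, TLE1, a corepressor, changed by 0.79 ± 0.11 and BCL9L by 0.85 ± 0.16.

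Genes of the pericellular coat were described as core proteins and as enzymes. Proteoglycans and hyaluronan genes had 36 of 53 members tested, 4 higher and 20 lower (66.7% called), 2 and 10 over 2-fold, median difference -0.48, beside 23.3% higher and 20% lower of all tested genes. SDC3, syndecan 3, went from 3307, 3084 and 3346 to 503, 616 and 605, a difference of -2.50 ± 0.08, while SDC1, syndecan 1, rose by 0.85 ± 0.07. COL18A1, whose core protein carries heparan sulfate, went from 542, 417 and 621 to 139, 108 and 111, and PTPRZ1 fell by 1.87 ± 0.22. Serglycin (SRGN), the proteoglycan of secretory granules in blood cells, went from 40.7, 33.3 and 58.2 to 319.5, 279.8 and 311, a rise of 2.79 ± 0.20. Enzymes that build or trim heparan and chondroitin sulfate had 43 of 52 members tested, 7 higher and 15 lower (51.2% called), 5 and 7 over 2-fold, median difference -0.13. CSGALNACT1, which starts chondroitin chains, went from 289.7, 289 and 293 to 65.8, 56.9 and 57.3 and EXTL1 fell by 2.12 ± 0.10. DSEL and DSE, the dermatan sulfate epimerases, rose by 1.36 ± 0.12 and 1.22 ± 0.16.

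Sphingolipid genes had 32 of 35 members tested, 10 higher and 6 lower (50% called), 6 and 3 over 2-fold, median difference 0.12. UGCG, which makes glucosylceramide, went from 1060.2, 1182 and 1091 to 3064, 2982 and 3217, a rise of 1.47 ± 0.06, and SPHK1, which makes the ligand of S1PR1, rose by 1.05 ± 0.10. Ganglioside enzymes were split: ST8SIA1, the synthase of the melanoma ganglioside GD3, rose by 2.20 ± 0.26, and ST3GAL5 and B4GALNT1, which make GM3 and GM2, fell, with differences of -1.25 ± 0.10 and -1.44 ± 0.07. CERS4, a ceramide synthase, went from 122, 119.5 and 109 to 9.78, 22.8 and 9.73.

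Families of calcium-binding and membrane-organising proteins changed in part. S100 proteins and annexins had 23 of 27 members tested, 9 higher and 8 lower (73.9% called), 4 and 3 over 2-fold, median difference -0.06. Besides S100B and S100A1, S100A4, linked to metastasis, went from 4148, 3956 and 3732 to 1997, 1625 and 1856, and annexin A2 (ANXA2) rose by 0.61 ± 0.04. Tetraspanins had 23 of 27 members tested, 5 higher and 9 lower (60.9% called), 2 and 4 over 2-fold, median difference -0.15. TSPAN13 went from 2168, 2322 and 2128 to 631, 522 and 615, a difference of -1.91 ± 0.08, and CD63, which melanoma cells carry on melanosomes and exosomes, fell by 0.56 ± 0.05, while TSPAN5, a partner of the protease ADAM10, rose by 1.32 ± 0.12. Imprinted genes had 29 of 46 members tested, 6 higher and 11 lower (58.6% called), 2 and 5 over 2-fold, median difference -0.09. CDKN1C, the cell cycle inhibitor p57, went from 159.5, 131 and 176 to 35.1, 27.6 and 23, INPP5F fell by 1.96 ± 0.05, and the carboxypeptidase gene CPA4 went from 1002, 929 and 938 to 6782, 6794 and 6571, a rise of 2.81 ± 0.05.

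**Figure D3:**
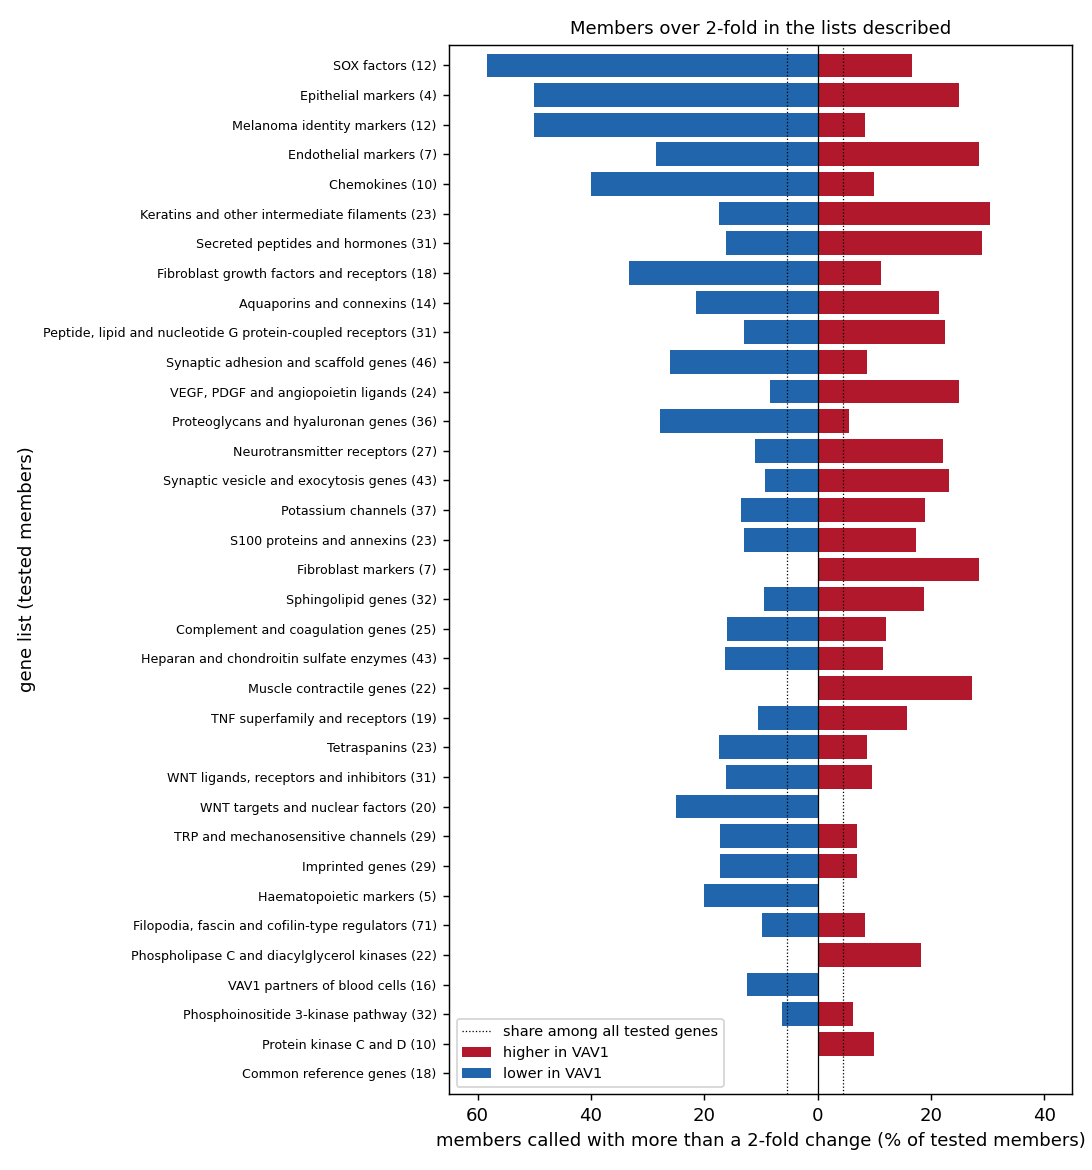
Share of the tested members of each described list that were called with more than a 2-fold change, higher to the right in red and lower to the left in blue, with the number of tested members in brackets and dotted lines at the shares of all tested genes (4.51% and 5.48%). SOX factors reach furthest to the left, muscle contractile genes have none on that side, and the common reference genes have none on either.

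A further 41 lists, among them solute carriers, ABC transporters, HOX genes, ETS factors, nuclear receptors and TRIM ligases, had smaller shares of members past 2-fold than the lists ranked highest in that respect. In the 40 of them with at least 8 tested members, 0% to 24% of the tested members passed 2-fold, 25.0% to 82.6% were called, and the medians ran from -0.47 to 0.38. Some of these lists were one-sided with small changes, and 2 are given here after their values were seen. Proteasome subunits, which degrade ubiquitinated proteins, had 46 of 46 members tested, 35 higher and 3 lower (82.6% called), 0 and 0 over 2-fold, median difference 0.22. Enzymes of one-carbon, nucleotide and polyamine metabolism had 55 of 58 members tested, 27 higher and 4 lower (56.4% called), 0 and 0 over 2-fold, median difference 0.18. The 24 lists described for their share past 2-fold were taken as the highest in that respect, so their shares are a description and carry no test.

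Markers of cell types were measured to see what the libraries hold. Of 16 melanoma identity markers 12 were tested, 2 rose and 7 fell (75.0% called, beside 43.3% of all tested genes). More than a 2-fold change was found for 58.3% of the tested markers, beside 10.0% of all tested genes. Summed normalized counts of the markers ran from 16957.5 to 18092 with VAV1 and from 35339 to 37767 with the empty vector. SOX10 and nestin, which hold large parts of these sums, went from means of 7522 and 4825 to 1787 and 1488. MIA, a secreted melanoma protein, went from 2494, 2336 and 2505 to 564, 526 and 553, and MITF, the regulator of the melanocyte lineage, rose from 434, 314 and 364 to 1065, 1110.4 and 1093. The pigment markers MLANA and PMEL were near the filter in both groups, with means of 6.22 and 18.1 for the empty vector and 3.69 and 17.6 for VAV1. A lower level in such bulk RNA cannot tell fewer expressing cells from less RNA per cell.

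Of 18 haematopoietic markers 10 had values, 5 were tested, and their sums were 345.2 to 417 with VAV1 and 597 to 696 with the empty vector. PTPRC, the defining CD45 gene of blood cells, had means of 6.08 and 5.78 and was not tested, and lysozyme (LYZ) went from 263, 209 and 245 to 51.4, 56 and 55.6. Of 12 fibroblast markers 10 had values and 7 were tested, with sums of 482 to 545 for VAV1 and 402 to 463 for the empty vector. The 2 that rose, FAP and POSTN, named for that reason, had means of 20 and 29.6 against 0.365 and 0.799. Both were near the floor and passed the filter only through the VAV1 libraries. COL1A1 and PDGFRB did not pass the test, and COL1A2 did not pass the filter. Of 14 epithelial markers 9 had values and 4 were tested, and the sums of 13204 to 14173 against 6416 to 7266 were carried by KRT18 and KRT8, which rose. The other 2 tested, the keratin KRT14 and the claudin CLDN4 of tight junctions, fell, with differences of -1.28 ± 0.20 and -1.08 ± 0.11, and CDH1, the defining E-cadherin gene, had means of 2.71 and 2.78. Of 12 endothelial markers 10 had values and 7 were tested, with sums of 777.7 to 880.3 against 437 to 577. TIE1 went from 30.3, 21.7 and 35.2 to 205, 238 and 217 and ROBO4 rose by 1.17 ± 0.15, whereas FLT1 went from 158, 154 and 125 to 12.9, 31.1 and 18, and the defining genes CDH5 and PECAM1 had means of 4.97 and 9.51 with VAV1. None of the markers with values was at 0 in all 6 libraries, and the part of other cells in the results was not tested.

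Among the genes with the largest normalized counts, a few changed by more than 2-fold. Counts are not per length, so no order between genes is read from them. The 20 with the largest mean took 7.55% ± 0.14 (SD, n = 3) of the VAV1 libraries and 7.48% ± 0.06 of the empty-vector libraries, and 15 genes were in both sets. SERPINE2, a secreted inhibitor of thrombin and plasminogen activators, went from 75059, 74831 and 75355 to 23603, 23274 and 23479.5, a difference of -1.68 ± 0.03 (adjusted p = 1.66e-11). GNAS, the stimulatory G protein subunit that raises cyclic AMP, went from 37903, 33196 and 35781 to 11019, 11002 and 10842, a difference of -1.70 ± 0.05. FTH1, the ferritin heavy chain that stores iron, went from 25540.0, 22821 and 24356 to 57594, 52166 and 52854, a rise of 1.16 ± 0.05. The chaperones HSP90AA1 and HSPA8 rose by 0.91 ± 0.05 and 0.59 ± 0.04, and vimentin (VIM), a mesenchymal filament, fell by 0.44 ± 0.04. Ferritin heavy chain has many pseudogenes with similar sequence, so its count is uncertain in part. The elongation factor EEF1A1 had a difference of 0.04 ± 0.04 and did not pass (adjusted p = 0.503).

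Common reference genes, used to normalise other assays, stayed within 2-fold. All 18 were tested, 7 rose and 1 fell (44.4% called, beside 43.3%), none passed 2-fold and the median difference was 0.03. TFRC, the transferrin receptor, changed by 0.73 ± 0.04, HPRT1 by 0.77 ± 0.08 and YWHAZ by 0.22 ± 0.04. GAPDH had 92085, 78895 and 84960.2 with the empty vector and 96211, 91019 and 96529.6 with VAV1, and its groups overlapped. The GAPDH difference of 0.15 ± 0.05 (adjusted p = 0.0368) lost its call in 8 of 17 alternatives, 4 of which leave out 1 library (the second or the third of the empty vector, the first or the third of VAV1).

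Some changed genes were neighbours on a chromosome. Among 12924 tested protein-coding genes with a position in GENCODE release 29, 590 were more than 2-fold higher (4.57%), and of these 14.9% were followed by the next tested gene in the same state. Of the lower genes with a following gene, 11.2% were followed by another lower one, beside 5.63% of all. Runs of 3 or more such neighbours numbered 12 higher and 8 lower. They fell to 5 and 4 with the filter at 50 normalized counts, and to 6 and 4 with a pseudocount of 16. Some members of the runs had low counts and passed the filter only through the group where they were higher. Neighbours include gene families with similar sequences, in which reads can be shared between copies.

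In runs that hold genes of more than 1 family, CAV2, CAV1 and MET (chr7:116287380-116798386) hold the caveolins, which shape membrane pits, and the receptor of hepatocyte growth factor. CAV1 went from 2862, 2855 and 3119 to 11647, 12383 and 13446, MET from 2017, 2003 and 2249 to 4955, 5135 and 5139 and CAV2 rose by 1.51 ± 0.12. VGLL2, ROS1 and DCBLD1 (chr6:117265558-117569858) rose by 4.67 ± 0.51, 5.02 ± 0.28 and 1.09 ± 0.14. VGLL2 and ROS1 had empty-vector means of 1.7 and 5.0 and passed the filter only through the VAV1 libraries. KISS1 too lay beside risen genes, GOLT1A (2.40 ± 0.33) and PLEKHA6 (3.53 ± 0.47), in chr1:204190341-204377665. KISS1 and GOLT1A, with empty-vector means of 1.95 and 6.86, also passed the filter only through the VAV1 libraries. Without such genes neither the ROS1 run nor the KISS1 run would reach 3 genes. MITF, FOXP1 and EIF4E3 (chr3:69739435-71754773) rose together, with the forkhead factor FOXP1 going from 37.4, 22.1 and 28 to 225, 178 and 217. ARHGAP28, LAMA1 and PTPRM (chr18:6729718-8406861) centred on LAMA1, a laminin chain that went from 28.4, 28.5 and 25.1 to 421, 445 and 459. PTPRB, PTPRR and LGR5 rose by 2.15 ± 0.35, 1.61 ± 0.17 and 3.51 ± 0.58, and LTF, LRRC2 and ALS2CL by 4.22 ± 0.53, 1.07 ± 0.30 and 2.58 ± 0.15, where the call of LRRC2 was lost without the first VAV1 library. LGR5 and LTF were near the floor, with means of 13.5 and 23.8 with VAV1 and 0.312 and 0.442 with the empty vector. LGR5 and LTF too passed the filter only through the VAV1 libraries, and neither of their runs would reach 3 genes without them.

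Family clusters made up the other higher runs. KRT80, KRT7, KRT86 and KRT81 (chr12:52168996-52309163) are type II keratins on chromosome 12. The annotation of KRT86 overlaps those of KRT7 and KRT81, so some reads may count for more than 1 of them. SPANXB1, LDOC1, SPANXC, SPANXA1, SPANXA2 and SPANXD (chrX:141002591-141698739), nearly all cancer-testis genes of the X chromosome, rose by 1.10 ± 0.11 (LDOC1) to 5.21 ± 0.19 (SPANXB1), SPANXD was listed at 0 in all empty-vector libraries, and SPANXA1 and SPANXA2 had identical values, so the split between copies is uncertain. VCX3A, VCX and VCX3B, and GAGE12G, GAGE1, GAGE2A and PAGE1, of the same kind, rose by 1.06 ± 0.22 to 1.87 ± 0.37 and by 1.46 ± 0.16 to 3.20 ± 0.20, and GAGE12G lost its call in 8 of the 17 alternatives, among them without the second empty-vector library and without each VAV1 library. HBG2, HBE1, OR51B4 and OR51B5 of the beta-globin region rose by 2.07 ± 0.10 to 3.17 ± 0.30, but their annotations overlap and reads of 1 transcript may count for several.

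In the lower runs, PPP4R4, SERPINA1, SERPINA5 and SERPINA3 (chr14:94146128-94624055) hold the protease inhibitor cluster of chromosome 14. SERPINA5 went from 483, 452 and 487 to 81.7, 76 and 57.2, beside the fall of SERPINA3 given above. HLA-DRA, HLA-DRB1, HLA-DQA1 and HLA-DQB1 (chr6:32439842-32668383), which present antigen as class II molecules, fell, with differences between -2.41 ± 0.06 and -2.05 ± 0.09, and the counts of these variable genes are uncertain between copies. HLA-DRA had 5705, 5987 and 5681 with the empty vector and 1293, 1181 and 1210.0 with VAV1. ARNT2, ABHD17C and CEMIP (chr15:80404350-80951776) fell, with differences of -1.77 ± 0.07, -1.95 ± 0.10 and -2.80 ± 0.08. STRA6, the vitamin A transporter, went from 1177, 1252 and 1122 to 363, 373 and 299.5 between ISLR (-2.47 ± 0.44) and CCDC33 (-1.07 ± 0.23). MRC2, a collagen receptor, went from 1998, 1976 and 1733 to 597, 759 and 859 beside MARCH10 and TANC2. FXYD3 lay between HPN (-1.90 ± 0.30) and FXYD7 (-2.08 ± 0.40), with means of 43.5 and 18.9 for the empty vector and 10.7 and 3.82 for VAV1. ISLR and MARCH10 were low too, with means of 39.7 and 30.5 for the empty vector and 7.02 and 6.19 for VAV1. FXYD7 and MARCH10 passed the filter only through the empty-vector libraries. SPON2 went from 304, 222 and 263 to 28, 35.8 and 38.3 in a run with FGFRL1, IDUA and SLC26A1, of which SLC26A1 lost its call without the third empty-vector library. PCDHB10, PCDHB11 and PCDHB12, protocadherins with similar sequences, fell, with differences between -1.54 ± 0.35 and -1.07 ± 0.22.

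**Figure D4:**
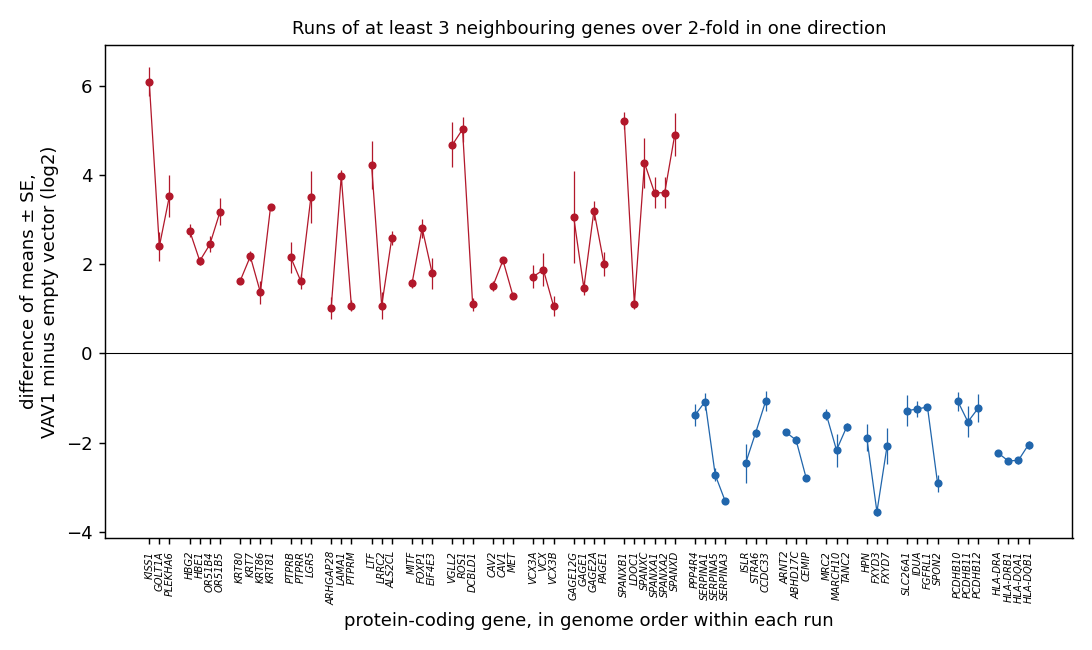
Differences of the group means with their SE (VAV1 minus empty vector, log2) for the genes of the 12 higher runs (red) and the 8 lower runs (blue), in genome order within each run and joined by a line. Every point lies past 1 in size by the rule, and KISS1 is the highest point, beside GOLT1A and PLEKHA6.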

How the data were processed

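RNA from 3 empty-vector and 3 VAV1 cultures, all with vehicle, was measured. The authors deposited, per the file headers and values, 1 table per library with the log2 of a normalized count plus 1 for each gene symbol. The submitters' processing notes name kallisto, DESeq2 and GRCh38, with versions, settings and annotation not given in the sources used here. The log2 values were used as deposited, with a linear model in limma 3.58.1 (R 4.3.3) that held 1 mean per group, empirical Bayes with trend and robust estimation, two-sided, and Benjamini-Hochberg adjustment over all 14067 tested genes. Whole reads could not be recovered (47.5% to 53.4% of low values within 0.1 of a multiple of the best step), so no count test was run and depth in reads is unknown. The method was tested on simulated data.

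The members, the 79 gene lists and the rules were chosen with earlier results of these data known. Named are VAV1, the 12 highest and 12 lowest changes among called genes without overlap and with a mean of at least 500, genes switched on or off, genes of neighbour runs, the 10 largest counts per group and, per described list, up to 4 called genes per direction with a mean of at least 100. Clone names were skipped, and not every gene that qualifies is printed. A few items are not reported here. Lists were described by counts and medians beside all tested genes, with no test. Positions are from GENCODE release 29 (95.2% of the tested genes had 1 match there), and promoters from RefSeq, matched for 77.6% of tested genes and for 69.6% and 72.1% of the genes over 2-fold higher and lower. A comparison of motif shares between gene sets is void at under 80%, and TATAAA was added after seeing the data. Alternatives were 4 scalings, 2 filters, pseudocounts of 4 and 16, a fit of 9 libraries, plain empirical Bayes, a replicate block and leaving out each library.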

Additional observations from a re-analysis of the deposited data

How the results depend on the processing

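The count of called genes stayed within 1.5 times of 6091 in all 17 alternatives (5137 to 5745 without 1 library), as did the counts of higher and lower genes. The 2-fold set of 1406 genes held 932 with a filter of 50 normalized counts, which tests fewer genes, and 1358 to 1435 without 1 library. Genes switched on numbered 8, 13 with limits of 5 and 50, and 8 to 12 without 1 library. The 1 gene switched off became 0 with limits of 5 and 50 or of 20 and 200, and 1 to 2 without 1 library. Recounting the runs was added after seeing the data: the 12 higher and 8 lower runs became 5 and 4 with the filter of 50 and 6 and 4 with a pseudocount of 16. No shared effect of the replicate number was seen, as residuals of same-numbered libraries correlated at 0.00479, -0.0599 and -0.011. Those of differently numbered libraries ran from -0.055 to 0.0654. Whether the cultures were grown in pairs cannot be read from these values. With the replicate block 5832 genes were called and 1400 passed 2-fold.

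Of the 338 genes that the naming rule covers, 302 kept direction and side of the threshold in every alternative that tested them, 33 lost their call in at least 1, 3 gained one, and none reversed. With 3 libraries a group and unknown read depth, small differences of genes with low values could not be resolved.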
